A study of Mus musculus with 30 samples.

Results

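The Schlafen genes are a family of interferon-inducible genes that restrain the growth of blood cells and limit viral replication. Mouse members are sorted by length into a short group (Slfn1 and Slfn2), an intermediate group (Slfn3 and Slfn4) and a long group that carries a helicase-like part (Slfn5, Slfn8 and Slfn9). In blood cells, Slfn2 is known for keeping T cells and monocytes in a resting state and for protecting tRNAs from cleavage, and Slfn4 for its expression in myeloid cells that respond to type I interferon. The 7 members described here were taken by symbol from both count tables, and all 7 were present among 13353 genes in bone marrow (BM) and among 17059 genes in adipose tissue macrophages (ATMs). No threshold on their values was used to choose them.

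RNA-seq was done on whole BM cells and on F4/80+ macrophages sorted from visceral fat, in 5 groups of 3 libraries per tissue. The groups were WT recipients and Ob/Ob recipients (leptin-deficient, obese mice) that received vehicle (Vehicle), the GLP-1R agonist beinaglutide at 3 mg/kg subcutaneously, an anti-IL-17A antibody at 200 µg per mouse intraperitoneally 3 times weekly, or both agents (Combo). In the Ob/Ob groups treatment lasted 30 days and began 8 weeks after transplantation. No dosing or time after transplantation is recorded for the WT libraries. Per the study's protocol, every recipient, WT included, had been irradiated with 700 and then 400 cGy and had received BM cells from Shp2E76K/+;LysM-Cre+ donors mixed with an equal number of Boy/J competitor cells. LysM-Cre acts in myeloid cells, and a library can hold mutant, competitor and residual host cells. The study's text also names WT donor cells for a comparison of ATMs, so whether WT and Vehicle ATMs shared a donor genotype is not certain, and a donor difference cannot be told apart from the recipient in that comparison. The labels give an age of 12 to 14 weeks without the step it refers to, and the study's text gives another age at irradiation, so the age at sampling is not certain. Both sexes were used, the labels list C57BL/6J as the genotype of all libraries, and no label gives the donor of a single library. The labels describe the 3 libraries of a group as biological replicates from 3 mice.

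Library totals ran from 31086184 to 39925495 counts in BM and from 24876074 to 45300263 in ATMs. Replicates varied with a biological coefficient of variation, as edgeR names it, of 3.51% in BM and 32.5% in ATMs. Whether the small spread in BM is the spread between separate mice cannot be told from these counts, and the BM p-values rest on it. Several marker lists set whole groups apart in ATMs. Adgre1, which encodes the sorted antigen F4/80, had 750 to 1184 counts in the Vehicle libraries and 5363 to 6993 in the WT libraries, and Mrc1, the mannose receptor of resident macrophages, had 105 to 314 against 4205 to 4987. The 9 mature neutrophil markers measured, out of 10 listed and S100a8 and S100a9 among them, summed to 16048 to 17024 CPM (counts scaled to the same library total) in Vehicle and 11215 to 11455 in Combo, against 231 to 542 in the other 3 groups, and none of the 9 was at 0 in a whole group. The 11 monocyte and macrophage markers listed summed to 2959 to 3149 CPM in Vehicle and 4895 to 5149 in WT. Not all of these 11 were lower in Vehicle. The 7 epididymis markers measured summed to 3316 to 3469 CPM in WT and to no more than 189 elsewhere, and the 7 pancreatic acinar markers to 962 to 986 CPM in Combo and to no more than 28.8 elsewhere. The 6 plasmacytoid dendritic cell markers summed to 1423 to 1460 CPM in Vehicle ATMs, with Siglech at 0, and to no more than 381 in the other ATM groups. In BM they summed to 829 to 860 CPM in Vehicle and to no more than 378 elsewhere. Xist, expressed from the inactive X chromosome of female cells, had 5284 to 6250 counts in BM Vehicle and 3382 to 3555 in BM Combo against 125 or fewer in the other BM groups, and 747 to 1400 in Vehicle and Combo ATMs against 53 or fewer elsewhere. These features were shared by all 3 libraries of a group, so they cannot be told apart from the group, and their part in the values that follow was not tested. In such bulk samples, fewer cells of a type and less RNA per cell cannot be told apart.

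The 7 genes lie in 1 cluster on mouse chromosome 11 (GRCm38, GENCODE annotation), from Slfn5 at 82951349 to 82964840 to Slfn3 at 83191330 to 83215154. Slfn9 (82978390 to 82991830) and Slfn8 (83002158 to 83020810) are on the minus strand and the others on the plus strand, with Slfn2 at 83065112 to 83070678, Slfn1 at 83116849 to 83122670 and Slfn4 at 83175186 to 83190216. All 7 are protein-coding. Reads were counted without regard to strand, and 8.84% of the exon length of Slfn5 overlaps the antisense gene Slfn5os. That gene had 0 to 44 counts in each ATM library, against at least 2724 for Slfn5. Because the members are related, 3.38% of the 100-base stretches of Slfn8 transcripts and 3.71% of those of Slfn9 recur in another Schlafen gene, mostly the pseudogene Slfn10-ps, whereas the share was 0.128% or less for the other 5 members. Over stretches of 50 bases it was 14.6% for Slfn8, 11.2% for Slfn9, 8.15% for Slfn4, 7.39% for Slfn3, 4.27% for Slfn2 and 0.606% for Slfn1, and 0 for Slfn5. All shared stretches of Slfn3 are in Slfn4. That gene was far more abundant in BM and in Vehicle and Combo ATMs, but not in the other ATM groups. Per the study's methods only uniquely mapped reads were counted, so reads lying wholly in a shared stretch can be missing. The levels of Slfn3, Slfn8 and Slfn9 are uncertain for that reason.

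Interferon-driven genes often carry an interferon-stimulated response element (ISRE) near their start, and its core, GAAA followed by any 2 bases and GAAA, was searched on both strands from 250 bases before to 50 bases after each RefSeq start site (GRCm38.p6). The core was present in 1126 of 32817 mouse promoters, or 3.43%. Among the members it was found upstream of the 3 long genes, at -155 to -146 in Slfn5, at -48 to -39 in Slfn8 and at -45 to -36 in Slfn9, where positions count from the start site. A second Slfn8 start site holds the same match at -136 to -127. No match was found in the windows of Slfn1, Slfn2, Slfn3 and Slfn4, and the core of the gamma-activated site, TTC and GAA with any 3 bases between, which occurs in 8.29% of promoters, was found in none of the 7. These matches are letters only and are not measured binding. The promoter of Slfn4, the member with the largest change, and those of the 3 genes with a match are shown with the ISRE core in capitals. The windows are chr11:83174936-83175235 on the plus strand for Slfn4, chr11:82951852-82952151 on the plus strand for Slfn5, chr11:83020761-83021060 on the minus strand for Slfn8 and chr11:82991781-82992080 on the minus strand for Slfn9.
Slfn4: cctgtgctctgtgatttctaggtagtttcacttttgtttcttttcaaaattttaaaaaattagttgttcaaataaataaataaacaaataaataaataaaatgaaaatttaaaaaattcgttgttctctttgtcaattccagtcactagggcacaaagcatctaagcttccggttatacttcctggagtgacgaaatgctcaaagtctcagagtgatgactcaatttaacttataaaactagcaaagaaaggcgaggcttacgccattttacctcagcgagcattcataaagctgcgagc
Slfn5: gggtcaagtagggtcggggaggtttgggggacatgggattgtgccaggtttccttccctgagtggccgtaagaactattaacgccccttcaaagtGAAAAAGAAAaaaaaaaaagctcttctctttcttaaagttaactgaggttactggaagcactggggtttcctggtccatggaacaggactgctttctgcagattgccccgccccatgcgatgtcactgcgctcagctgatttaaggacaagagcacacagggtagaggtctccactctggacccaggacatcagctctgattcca
Slfn8: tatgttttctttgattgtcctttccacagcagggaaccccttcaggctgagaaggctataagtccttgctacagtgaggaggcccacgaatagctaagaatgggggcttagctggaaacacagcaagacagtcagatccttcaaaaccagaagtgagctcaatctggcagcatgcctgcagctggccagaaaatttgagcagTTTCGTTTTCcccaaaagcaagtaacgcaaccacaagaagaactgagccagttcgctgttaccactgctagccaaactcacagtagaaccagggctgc
Slfn9: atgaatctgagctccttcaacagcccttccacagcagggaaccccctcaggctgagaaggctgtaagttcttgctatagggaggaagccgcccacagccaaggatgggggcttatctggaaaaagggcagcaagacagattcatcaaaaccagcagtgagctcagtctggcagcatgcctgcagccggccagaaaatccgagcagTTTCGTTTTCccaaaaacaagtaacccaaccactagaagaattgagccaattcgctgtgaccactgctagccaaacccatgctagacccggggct
In Slfn8 and Slfn9 the core reads TTTCGTTTTC on the gene's own strand, and in Slfn5 it reads GAAAAAGAAA.

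In BM, the RNA of most Schlafen genes was higher in obese recipients given Vehicle than in WT recipients. A gene was called when edgeR's quasi-likelihood test gave an adjusted p below 0.05 and an absolute log2 fold change above 1. In Vehicle vs WT, 5 of the 7 members were called higher, where 9.44% of all genes tested were. Xist levels also differed between these groups and no dosing is recorded for WT, so obesity cannot be told apart from those differences. The 3 Vehicle libraries lay above the 3 WT libraries for all 7 members, where 75.8% of all genes tested did not overlap, counted in either direction. The median log2 fold change of the members was 1.79, against -0.02 over all genes. In the short group, Slfn2 was not called. It had 20521, 20721 and 20915 normalized counts in WT and 37011, 37018 and 37315 in Vehicle, a log2 fold change of 0.84 (SE 0.0213, adjusted p = 2.95e-31, edgeR) that passed the test and stayed under the fold limit. Slfn1, first described as a brake on T cell growth, had 6919 to 7219 in WT and 24168 to 24315 in Vehicle, which is 3.45-fold (log2 1.79, SE 0.0241).

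Slfn4 rose the most. Its normalized counts were 7369, 6790 and 6389 in WT and 103293, 103889 and 101288 in Vehicle, a rise of 15-fold (log2 3.91, SE 0.0352, adjusted p = 3.7e-32, edgeR). The spread within a group was small beside this gap. Its neighbour Slfn3, which is known from T cell and gut epithelial differentiation, had 457, 351 and 336 in WT and 613, 584 and 521 in Vehicle, a log2 fold change of 0.58 (SE 0.0981, adjusted p = 3.95e-06, edgeR) under the fold limit. Among the long genes, Slfn5, a nuclear protein induced by interferon, went from 1575, 1427 and 1340 to 12797, 12541 and 12587, or 8.71-fold. Slfn8 rose 4.66-fold (log2 2.22, SE 0.0446) and Slfn9 2.4-fold (log2 1.27, SE 0.0656). The 9 neutrophil markers summed to 92192 to 99676 CPM in BM of WT and to 85852 to 88704 in Vehicle, with 0 of the 9 called higher and 2 lower. Lyz2, a granulocyte and monocyte gene, had lower levels in Vehicle (120565 ± 902 against 448727 ± 4433 normalized counts, SD, n = 3), while Ly6c2, a marker of inflammatory monocytes, had higher ones (94010 ± 3277 against 23439 ± 1083). The 11 monocyte and macrophage markers listed summed to 14243 to 14657 CPM in WT and to 6546 to 6614 in Vehicle. Of these 11, 3 were called higher (9.44% of all genes tested), 3 lower (10%) and 5 were not called. The part of all these markers in the result was not tested.

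**Figure D1:**
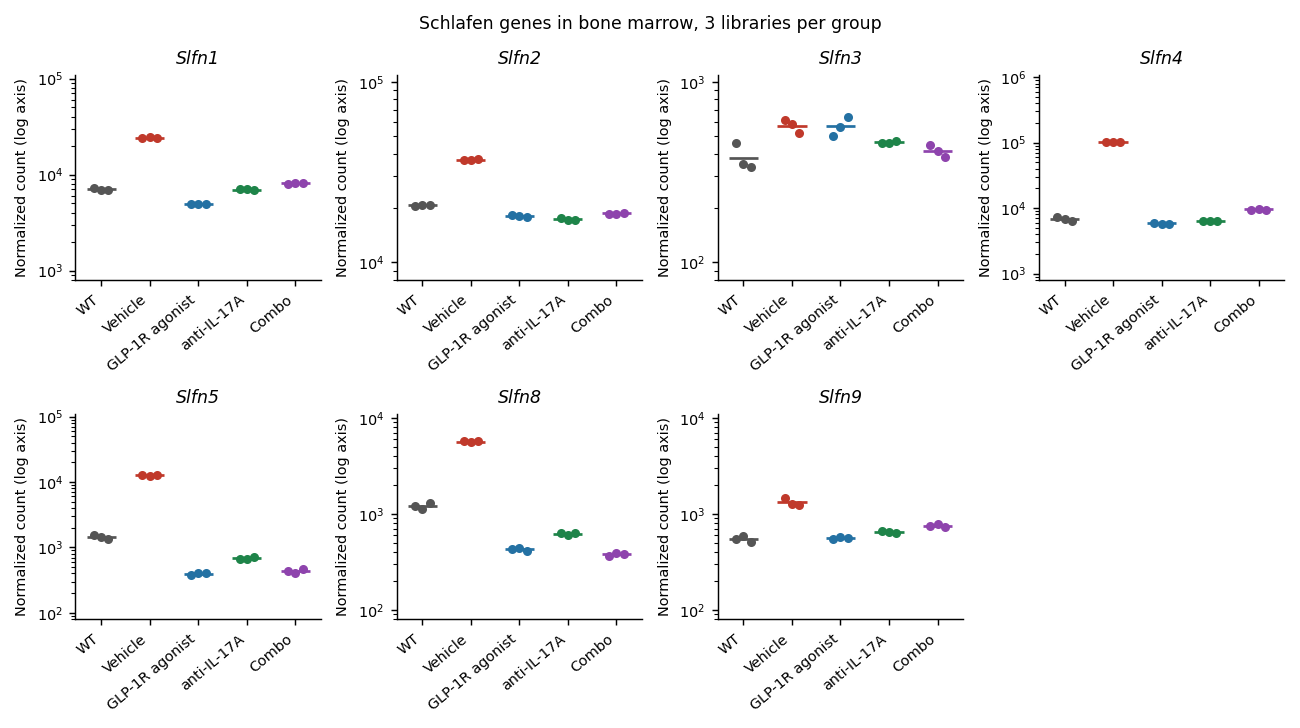
Normalized counts on a log axis for each of the 7 Schlafen genes in BM, with 1 point per library and a line at the mean of each group of 3. Vehicle has the highest mean for every gene, with Slfn4 between 101288 and 103889, and Slfn3 Vehicle points overlap those of the GLP-1R agonist.

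Most Schlafen genes had less RNA in BM of treated than of Vehicle recipients. The comparisons share the Vehicle libraries, so they are not independent of each other. With the GLP-1R agonist, 6 of 7 members were called lower (9.08% of all genes tested), with anti-IL-17A 6 of 7 (8.46%), and with Combo 4 of 7 (11.1%). Slfn5 fell the furthest: it had 379, 407 and 410 normalized counts with the GLP-1R agonist, 661, 668 and 726 with anti-IL-17A and 431, 402 and 462 with Combo, against at least 12541 in Vehicle. These are falls of 31.7-fold, 18.4-fold and 29.3-fold. Slfn4 had 5774 to 5961, 6350 to 6428 and 9377 to 9815 in the same order, falls of 17.6-fold, 16.1-fold and 10.8-fold. By adjusted p alone all 7 members differed between Combo and Vehicle, where 73.8% of all genes tested did. All 9 treated libraries lay far below the 3 Vehicle libraries for both genes. Slfn8 fell by 13.1-fold, 9.16-fold and 15-fold, and Slfn1 by 4.89-fold, 3.47-fold and 2.97-fold.

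The other 3 members moved less. Slfn2 changed by -1.04, -1.10 and -0.99 on the log2 scale (SE 0.0214 each), so it was called with each single agent, while with Combo it passed the test (adjusted p = 9.55e-34, edgeR) and stayed just short of the fold limit. Slfn9 was likewise called with each single agent and not with Combo, with log2 fold changes of -1.24, -1.03 and -0.82. Slfn3 was not called with any treatment. With the GLP-1R agonist its libraries overlapped those of Vehicle (502, 565 and 636 against 521 to 613), with a log2 fold change of -0.02, an approximate 95% interval of -0.20 to 0.17 and an adjusted p of 0.879 (edgeR). The distance of Slfn2 and Slfn9 from the fold limit is small: without replicate 3 of BM Vehicle the Slfn2 change with Combo was -1.03, and without replicate 1 of BM Vehicle the Slfn9 change with anti-IL-17A was -0.95, which was not called. Markers of other cells moved in BM too. Against Vehicle, 8 of 8 B cell markers were called lower with the GLP-1R agonist (9.08% of all genes tested) and 7 of 8 with Combo (11.1%). Of the erythroid markers, 5 of 5 were called higher with the GLP-1R agonist (7.6%). With Combo, 6 of 9 mature neutrophil and 3 of 6 immature granulocyte markers were called higher (6.58%), and 3 of 6 T cell markers lower. With anti-IL-17A, 3 of 9 mature neutrophil markers were called higher (7.65%). Monocyte and macrophage markers summed to 6546 to 6614 CPM in Vehicle, 4599 to 4613 with the GLP-1R agonist, 7910 to 7963 with anti-IL-17A and 6993 to 7089 with Combo. Their part in the Schlafen changes was not tested.

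Against WT, the treated BM groups split the family. With Combo, Slfn5 (log2 fold change -1.75, SE 0.0558) and Slfn8 (-1.69, SE 0.0573) were called lower than WT, and 9.93% of all genes tested were. With the GLP-1R agonist Slfn5 and Slfn8 were called lower, by 3.64-fold and 2.82-fold (8.62% of all genes tested), and with anti-IL-17A only Slfn5 was, at -1.08 (4.02%), since Slfn8, at -0.98 (SE 0.0521), missed the fold limit and was called, at -1.01, without replicate 2 of BM WT. Slfn4 with Combo remained 1.39-fold above WT (log2 0.48, SE 0.0329, adjusted p = 1.09e-12, edgeR), with no overlap, and was below WT by 0.23 on the log2 scale with the GLP-1R agonist and by 0.10 with anti-IL-17A. Slfn1 was likewise above WT with Combo (0.21), below it with the GLP-1R agonist (-0.50) and at -0.01 with anti-IL-17A (approximate 95% interval -0.06 to 0.04, libraries overlapping). None of these smaller differences reached the fold limit. The fold changes in these BM comparisons do not use the Vehicle libraries, which enter only the shared estimate of the spread. By adjusted p alone, with no fold limit, 6 of 7 members differed from WT with each treatment, where 73.3%, 74.7% and 66.3% of all genes tested did with Combo, the GLP-1R agonist and anti-IL-17A, so the small differences of the members were near the general rate.

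Between the treated BM groups no member was called. For Combo against the GLP-1R agonist, edgeR and DESeq2 both called 0 of 7 members (13.2% of all genes tested by edgeR), although 6 had an unadjusted p below 0.05. For Combo against anti-IL-17A the calls were 0 of 7 by both tools (5.67%) with 6 at an unadjusted p below 0.05, and for the GLP-1R agonist against anti-IL-17A 0 of 7 by both (5.83%) with 7. By adjusted p alone the counts were 5, 6 and 7 members, where 71.4%, 52.5% and 62.7% of all genes tested passed. Slfn1 and Slfn4 were 0.72 and 0.71 higher on the log2 scale with Combo than with the GLP-1R agonist, and the changes of Slfn5 and Slfn8 with Combo against anti-IL-17A were -0.67 (SE 0.0612) and -0.71 (SE 0.0621).

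In ATMs every member was higher in Vehicle than in WT. All 7 were called, where 12.5% of all genes tested were called higher. The libraries did not overlap for any of the 7, where 62.9% of all genes tested did not, counted in either direction. The median log2 fold change was 2.81, against -0.21 over all genes. Slfn2, by far the most abundant member here, had 4716, 5129 and 4923 normalized counts in WT and 51302, 49190 and 50419 in Vehicle, which is 10.2-fold (log2 3.35, SE 0.0439, adjusted p = 1.03e-17, edgeR). Slfn1 had 242, 274 and 279 in WT and 9599, 9749 and 9971 in Vehicle, or 36.9-fold. Slfn4 was nearly silent in WT, with 13, 84 and 74 raw counts, and had 5927, 6168 and 5936 in Vehicle, or 138-fold (log2 7.11, SE 0.604). These 3 genes of the short and intermediate groups showed the largest changes.

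The long genes and Slfn3 changed less. Slfn5 had 4520 to 4988 normalized counts in WT and 10317 to 10446 in Vehicle, or 2.2-fold (log2 1.14, SE 0.0685, adjusted p = 9.83e-10, edgeR), the smallest change of the 7. Slfn8 rose 7.01-fold, Slfn3 7.02-fold and Slfn9 6.61-fold. Slfn9 was the least evenly measured of these in WT (169, 120 and 276). In the same libraries the neutrophil markers were 16048 to 17024 CPM in Vehicle and 519 to 542 in WT, and S100a8 alone had 318239 ± 11321 against 1940 ± 80.1 normalized counts (SD, n = 3). Ptprc, which encodes the pan-leukocyte antigen CD45, was lower in Vehicle (4174 ± 488 against 7738 ± 268), so Slfn2 per 100 Ptprc counts went from 63.6 ± 2.03 to 1217 ± 156. Of the 11 monocyte and macrophage markers listed, 4 were called higher than in WT (12.5% of all genes tested), 6 lower (22.9%) and 1 was not called. The part of these features in the rise was not tested.

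**Figure D2:**
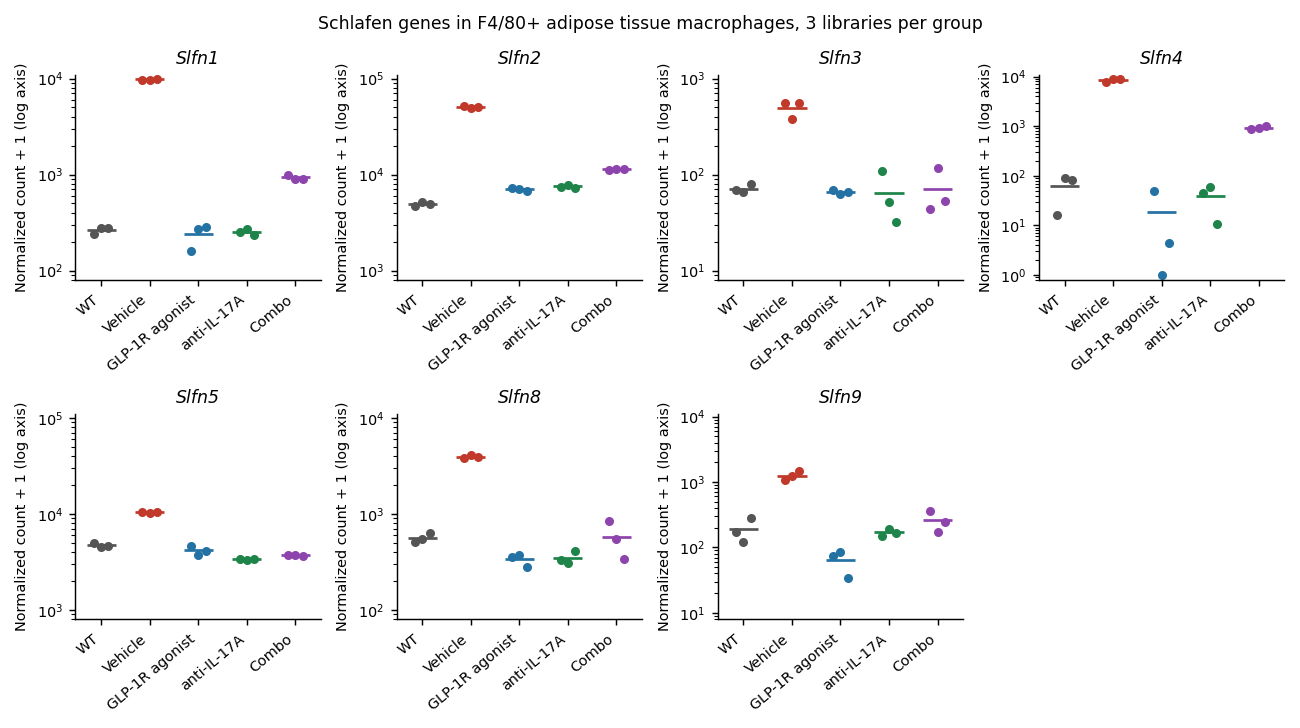
Normalized counts plus 1 on a log axis for each of the 7 Schlafen genes in ATMs, with 1 point per library and a line at the mean of each group of 3. The Vehicle points stand above all others for every gene, and Slfn1, Slfn2 and Slfn4 have Combo as the next highest group with no overlap with the remaining 3 groups.

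In ATMs all 7 members were called lower than in Vehicle with each of the 3 treatments. The share of all genes tested that was called lower was 10.9% with the GLP-1R agonist, 13.1% with anti-IL-17A and 12.2% with Combo, and the 3 comparisons share the Vehicle libraries. Slfn4 fell the furthest with a single agent: it had 49, 0 and 4 raw counts with the GLP-1R agonist and 64, 78 and 12 with anti-IL-17A, with log2 fold changes of -8.87 (SE 0.685) and -7.81 (SE 0.621). Without replicate 1 of the GLP-1R agonist, the library with 49 counts, the first was -11.91. With Combo it kept 1010, 1011 and 1046 raw counts, a change of -3.22 (SE 0.477). Slfn1 followed the same order, at -5.37, -5.27 and -3.39. Slfn2 changed by -2.85, -2.74 and -2.15 and Slfn5 by -1.32, -1.62 and -1.49, the smallest change of any member with each treatment. Slfn3 was at -2.93, -2.97 and -2.83, Slfn8 at -3.56, -3.50 and -2.77, and Slfn9 at -4.30, -2.89 and -2.26.

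**Figure D3:**
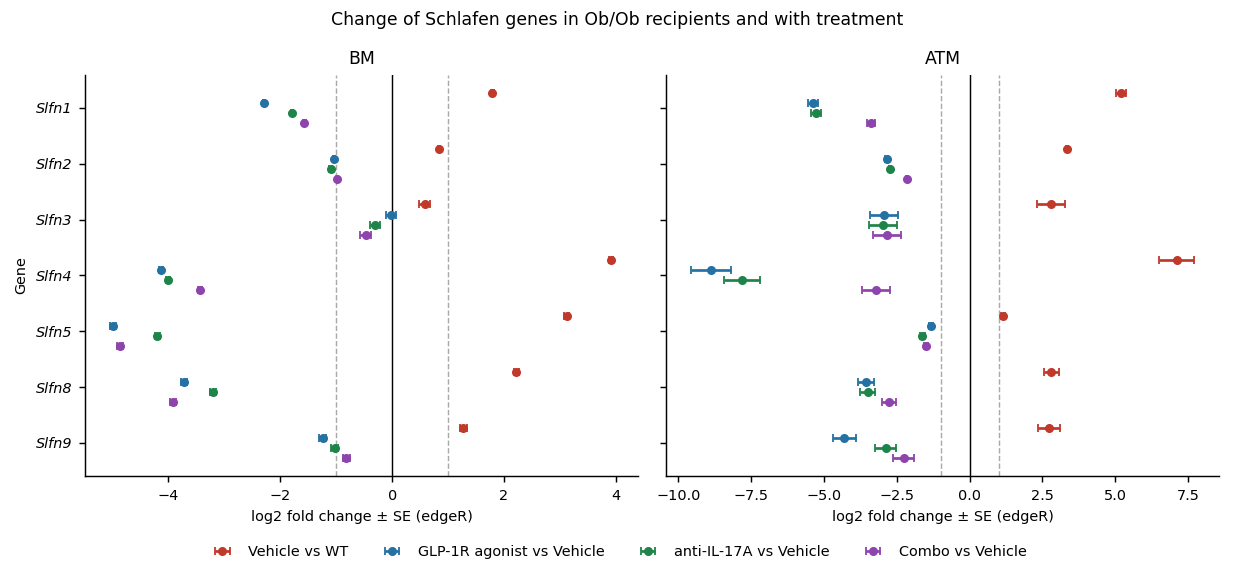
Log2 fold changes with standard errors (edgeR) of the 7 Schlafen genes in BM (left) and ATMs (right), for Vehicle vs WT and for each treated group vs Vehicle, with dashed lines at the fold limit of 1 and scales that differ between the panels. Vehicle vs WT lies to the right of 0 for every gene and the treated groups to the left, except that Slfn3 in BM with the GLP-1R agonist lies at -0.02.

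Some members stayed above WT with Combo in ATMs. Against WT, 3 of 7 members were called higher with Combo, where 7.08% of all genes tested were: Slfn4 at 14.8-fold (log2 3.89, SE 0.557, adjusted p = 3.82e-05, edgeR), Slfn1 at 3.52-fold (907 to 984 normalized counts against 242 to 279) and Slfn2 at 2.3-fold (11109 to 11454 against 4716 to 5129). With the GLP-1R agonist 1 member, Slfn9, was called lower than WT (33.2 to 85.3 against 120 to 276, log2 fold change -1.58, SE 0.375), and 7.42% of all genes tested were. With anti-IL-17A 0 of 7 members were called by edgeR and by DESeq2 (18.7% of all genes tested by edgeR, in either direction), with 3 at an unadjusted p below 0.05. Slfn2 stayed above WT with either agent, by 0.51 with the GLP-1R agonist and by 0.61 with anti-IL-17A on the log2 scale, without overlap and under the fold limit. Slfn4 with the GLP-1R agonist was at -1.77 (SE 0.786, adjusted p = 0.0958, edgeR) against WT, and without replicate 1 of the GLP-1R agonist, which had 49 counts where the others had 0 and 4, at -4.80 (adjusted p = 0.00394, edgeR). Without replicate 1 of WT it was at -2.20 and was called too.

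The treatments were then compared with each other in ATMs. With Combo, 3 members were higher than with the GLP-1R agonist (5.38% of all genes tested), namely Slfn4 (log2 5.66, SE 0.656), Slfn9 (2.05, SE 0.376) and Slfn1 (1.98, SE 0.152), and without replicate 3 of Combo Slfn8 joined them at 1.06. The Slfn4 value was 8.69 without replicate 1 of the GLP-1R agonist. Against anti-IL-17A, Slfn4 (4.59, SE 0.57) and Slfn1 (1.89, SE 0.148) were called higher with Combo (3.73%), and Slfn8 joined them at 1.00 without the same library. Slfn2 was higher with Combo than with either, by 0.70 and 0.59, under the fold limit. Between the single agents only Slfn9 was called, lower with the GLP-1R agonist at -1.41 on the log2 scale (SE 0.372, adjusted p = 0.00907, edgeR), where 3.22% of all genes tested were lower. Slfn4 in that comparison was at -1.07 and was called at -4.11 without replicate 1 of the GLP-1R agonist. By adjusted p alone, 4 members differed between the GLP-1R agonist and WT (35.5% of all genes tested), 3 between anti-IL-17A and WT (38.3%), 5 between Combo and the GLP-1R agonist (39.8%), 4 between Combo and anti-IL-17A (28.6%) and 2 between the single agents (29.8%). The neutrophil markers moved with the Combo values of Slfn4 and Slfn1 (11215 to 11455 CPM against 231 to 436 with the single agents). Immature granulocyte markers were also higher with Combo (420 to 442 CPM against 7.42 to 15.3). In Vehicle, where Slfn4 and Slfn1 were highest, the immature granulocyte markers summed to only 18.4 to 24.3 CPM. The part of both marker lists was not tested. Per 100 Ptprc counts, Slfn2 was 58.5 ± 4.98 with Combo, 52 ± 1.68 with the GLP-1R agonist and 53.9 ± 6.07 with anti-IL-17A against 63.6 ± 2.03 in WT, while Slfn1 was 4.83 ± 0.436 with Combo and 3.42 ± 0.148 in WT, and Slfn4 was 4.8 ± 0.648 and 0.784 ± 0.503.

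For most members the fall with Combo was smaller than the sum of the falls with both agents on the log2 scale. The departure from that sum was positive and called for 6 of 7 members in BM (9.59% of all genes tested) and for 7 of 7 in ATMs (12.9%). In BM it was 4.72 for Slfn4 (SE 0.0477), 4.32 for Slfn5 and 1.14 for Slfn2, and for Slfn3 -0.14 (adjusted p = 0.365, edgeR). In ATMs it was 3.44 for Slfn2 (SE 0.0583), 1.45 for Slfn5 (SE 0.0964) and 7.25 for Slfn1 (SE 0.222). No value is given for Slfn4 in ATMs, since with either agent alone it was already near the lower end of what the counts can show. Its departure could therefore only be positive. For Slfn1, Slfn3 and Slfn9 in ATMs the summed falls also lead close to that lower end, which leaves little room for a negative departure. The count of 7 of 7 in ATMs includes these 4 genes, so for them the count alone does not show that Combo did less than the sum. Slfn4 and Slfn1 were called higher with Combo than with either agent alone, so they fell less with Combo than with either. Slfn9 was called higher only against the GLP-1R agonist, and Slfn3 against neither agent. A positive departure means a smaller fall with Combo than the falls with the single agents add up to. The departure uses the Vehicle libraries and all 3 treated groups.

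The Vehicle vs WT change differed between the tissues for most members. In 1 fit of all 30 libraries over 13076 common genes, the Vehicle vs WT change in ATMs minus that in BM was called for 6 of 7 members, 5 of them larger in ATMs (11.9% of all genes tested) and 1 smaller (16.8%). Slfn1 differed by 3.42 (SE 0.129), Slfn4 by 3.19 (SE 0.36), Slfn2 by 2.51, Slfn3 by 2.23 and Slfn9 by 1.46. Slfn5 went the other way, at -1.99 (SE 0.0918, adjusted p = 3.31e-16, edgeR), since it rose 8.71-fold in BM and 2.2-fold in ATMs. Slfn8 differed by 0.59 (approximate 95% interval 0.11 to 1.08), under the fold limit. For Combo vs Vehicle, Slfn4 was not called at 0.25 (approximate 95% interval -0.28 to 0.78), 4 members changed more in ATMs (10.3% of all genes tested) and 2, Slfn5 at 3.42 and Slfn8 at 1.18, fell more in BM (17.8%). Without replicate 1 of Combo in ATMs, Slfn8 was at 0.79 and not called.

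**Figure D4:**
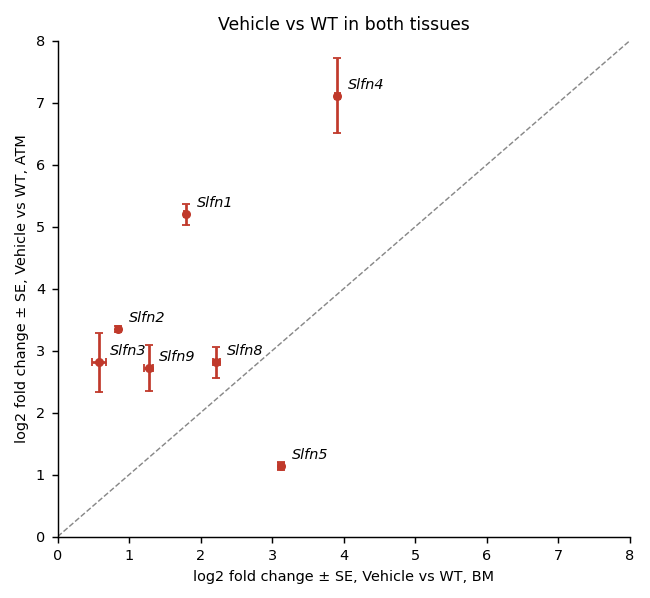
Log2 fold change of Vehicle vs WT with standard errors (edgeR) for each Schlafen gene, BM on the horizontal and ATMs on the vertical axis, with a dashed line where both are equal. Slfn5 alone lies below the line, at 3.12 in BM and 1.14 in ATMs, and Slfn4 lies highest, at 3.91 and 7.11.

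To compare levels between genes, counts were divided by exon length and library size (FPKM). The 7 members summed to 536 ± 3.99 FPKM in BM of WT recipients and to 1867 ± 8.38 in Vehicle (SD, n = 3), and to 443, 467 and 529 with the GLP-1R agonist, anti-IL-17A and Combo. Slfn2 was the leading member in WT, with 66.7% of the sum, ahead of Slfn1 with 20.2% and Slfn4 with 9.25%. In Vehicle, Slfn4 led with 39.9%, ahead of Slfn2 with 34.3%, and with treatment Slfn2 led again at 60.9% to 70.5%. In ATMs the sum was 122 ± 3.27 in WT, 1224 ± 15.4 in Vehicle, 154 with the GLP-1R agonist, 161 with anti-IL-17A and 251 ± 0.884 with Combo. Slfn2 made up 73% to 84.8% of it in every group, and the second place went from Slfn5 in WT (18.4%) to Slfn1 in Vehicle (12.9%). Slfn3 and Slfn9 stayed at or below 1.08% of the sum in both tissues.

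**Figure D5:**
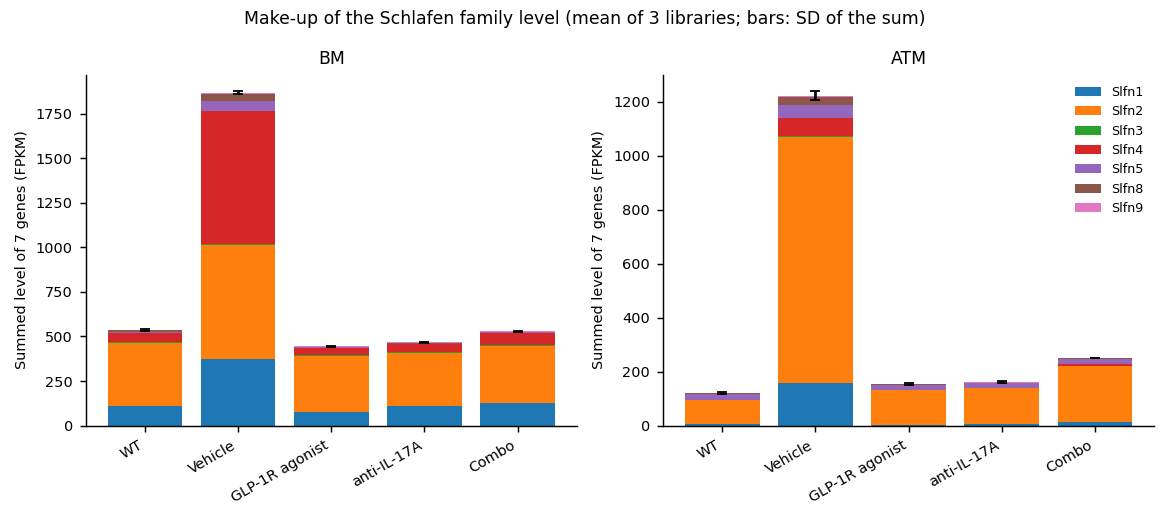
Summed level of the 7 Schlafen genes in FPKM, stacked by gene, as the mean of 3 libraries for each group in BM (left) and ATMs (right), with bars for the SD of the sum and scales that differ between the panels. The BM Vehicle bar of 1867 is split mainly between Slfn4, Slfn2 and Slfn1, and the ATM Vehicle bar of 1224 is mostly Slfn2.

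Genes of the interferon pathway were described from fixed lists. Of 8 interferon ligands listed, 1 was measured in BM and 4 in ATMs. Ifng, the type II interferon, had 27.9 ± 1.15 normalized counts in BM of WT and 130 ± 12.8 in Vehicle, was called higher (log2 2.22), and was called lower with all 3 treatments, to 4.15 ± 3.75 with Combo. In ATMs it had 486 ± 126 in Vehicle and was called higher with anti-IL-17A (log2 1.42) and with Combo (1966 ± 51.8, log2 2.01), while with the GLP-1R agonist it had 896 ± 116 (log2 0.88), under the fold limit. Ifnb1, a type I interferon, had 58.2 ± 19.7 in ATMs of WT, 1353 ± 114 in Vehicle, 638 ± 44.7 with the GLP-1R agonist, 46.5 ± 22.4 with anti-IL-17A and 105 ± 19 with Combo. It was called higher in Vehicle (log2 4.54) and lower with all 3 treatments, by the least with the GLP-1R agonist (-1.08). Ifna1 and Ifna4 were at 46.8 or fewer normalized counts in every group mean and were not called higher in Vehicle.

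Interferon receptors and signal carriers come next in the pathway. Of 10 receptor and signalling genes, 1 was called higher in Vehicle vs WT in BM, near the 9.44% of all genes tested, and 4 in ATMs, where 12.5% of all genes tested were, with 0 lower in either. Stat2, part of the complex that binds the ISRE, rose from 1744 ± 85 to 16168 ± 181 in BM (log2 3.21) and by 3.26 in ATMs. All 23 interferon-stimulated genes listed were called higher in Vehicle vs WT in both tissues and lower with each treatment vs Vehicle, with median changes of 3.76 in BM and 4.44 in ATMs. Irf7, the regulator that amplifies interferon production, had 2203 ± 126 in WT and 49550 ± 1311 in Vehicle in BM, and 3776 ± 111 and 172943 ± 2933 in ATMs. Against WT, 16 of the 23 were called lower with Combo in BM (9.93% of all genes tested) and 0 higher (4.4%). Slfn5 and Slfn8 were also called lower there, and Slfn4 and Slfn1 were not. In ATMs 1 of the 23 was called higher (7.08% of all genes tested) and 4 lower (14.5%) with Combo against WT, near the general rates. Slfn4, Slfn1 and Slfn2 were called higher there. Of 7 genes measured for tRNA cleavage and tRNA stress, only Rnh1, an inhibitor of RNases that cut tRNA, was called in Vehicle vs WT, at 1.05 in BM and 1.23 in ATMs, and in ATMs it was called lower with none of the treatments.

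For each member, the genes whose profile over the 5 group means was most alike were found by the root mean square difference of centred log2 means, over 13196 genes in BM and 16583 in ATMs. In BM, Slfn1 was closest to Ly6c2 (0.0913), Slfn4 to F7, Ms4a6d and Il18bp (0.278 to 0.305), Slfn5 to Gbp5 (0.154), Gm12250 and Bst2, and Slfn8 to Stra6l (0.0669). Slfn2 was closest to 2010111I01Rik (0.0205) and Slfn9 to Fbxl5 (0.0437), while Slfn3, whose profile had no sharp peak, was closest to Jak2 (0.0279). In ATMs, Slfn1 was closest to Oas3 (0.232), an interferon-induced sensor of double-stranded RNA, Slfn8 to Ifi203, Igtp and Ifi35 (0.109 to 0.157), Slfn9 to H2-T24, H2-T22 and Scimp (0.218 to 0.221), and Slfn4 to Cxcl17, Lypd2 and Klk11 (0.323 to 0.433). Slfn2 was closest to Gpr27 (0.126), Slfn3 to Inha (0.0843) and Slfn5 to Taf7 (0.0358). Within the family, the closest pair was Slfn2 and Slfn9 in BM (0.214), followed by Slfn1 and Slfn9 (0.352) and Slfn2 and Slfn3 (0.365), and in ATMs it was Slfn3 and Slfn8 (0.293). These distances rest on 5 means and are a description.

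The remaining Schlafen genes were looked at beside the members. The pseudogene Slfn10-ps shares transcript stretches with Slfn8 and Slfn9. It had 58.7 ± 9.32 normalized counts in BM of WT and 406 ± 33.2 in Vehicle (log2 2.79), and 187 and 1524 in ATMs (log2 3.02). It was called lower with each treatment in both tissues. Slfn14, known from red cell and platelet formation, went against the members in BM, with 249 ± 28.2 in WT, 27.4 ± 6.49 in Vehicle and 449 ± 24.9 with the GLP-1R agonist (log2 fold change of Vehicle vs WT -3.19, SE 0.174). The 5 erythroid markers measured summed to 1013 to 1042 CPM in BM of WT, 633 to 645 in Vehicle and 2329 to 2378 with the GLP-1R agonist, and their part in the Slfn14 values was not tested. Slfnl1, a Schlafen-like gene on another chromosome, was measured in ATMs alone, where it had 0 counts in all Vehicle and Combo libraries. Its mean was 62.6 normalized counts in WT, 519 with the GLP-1R agonist and 549 with anti-IL-17A. The means with the GLP-1R agonist and anti-IL-17A were at least 121-fold and 128-fold higher than Vehicle when set against 3 counts per library.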

How the data were processed

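RNA-seq was done on BM cells and ATMs, with 15 libraries per tissue. The authors aligned reads with STAR 2.7.2a to GRCm38. Uniquely mapped reads were counted per gene with featureCounts 2.0.1, without strand, and the deposited values are raw counts. A read overlapping several genes was counted for each, and genes with very low totals are not in the tables. Groups were taken from the sample labels.

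Counts were normalized by TMM and tested per tissue with edgeR 4.0.16 (quasi-likelihood, R 4.3.3) in 1 fit of 15 libraries, with Benjamini-Hochberg adjustment over all genes. The tests were checked on simulated data. For normalized counts, each count was scaled by TMM-adjusted depth to the mean adjusted depth of its tissue. FPKM used GENCODE exon lengths. Approximate intervals are the log2 fold change with 95% limits from its SE, and p-values measure only the spread between libraries of a group. All 7 members are named, with the 4 most abundant genes at most of each fixed list per tissue and genes from the 3 most alike to each member, and some results on single genes are not reported here. Adgre1, Mrc1, Ptprc and Xist were named after their values were seen, and so was the division by Ptprc. The members and lists were chosen with earlier results of these data known. Alternatives were DESeq2 1.42.0 and its size factors, filters on low counts, fits with only the groups compared, a replicate block, no fold limit and leaving out each library.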

Additional observations from a re-analysis of the deposited data

Results flagged for a closer look

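The response of 7 Schlafen genes was compared between tissues in 1 edgeR fit of all 30 libraries, and the results singled out are those whose log2 fold change differed between ATMs and BM with an adjusted p below 0.05 and a difference above 1. Values are the change in ATMs minus the change in BM. For Vehicle vs WT the difference was 3.42 for Slfn1, 2.51 for Slfn2, 2.23 for Slfn3, 3.19 for Slfn4 and 1.46 for Slfn9, so the change was larger in ATMs, and -1.99 for Slfn5, whose change was larger in BM.

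For Combo vs Vehicle the difference was -1.78 for Slfn1, -1.12 for Slfn2, -2.32 for Slfn3 and -1.40 for Slfn9, so the change was larger in ATMs. It was 3.42 for Slfn5 and 1.18 for Slfn8, which fell more in BM. Without replicate 1 of Combo in ATMs the Slfn8 value was 0.79. Both sets share the Vehicle libraries. The neutrophil, epididymis and acinar markers also differed between the ATM groups compared here, not all in the direction of the members. Their part was not tested.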

How the results depend on the processing

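Among alternatives that left out no library, 986 log2 fold changes of the 7 Schlafen genes kept their direction and their side of the threshold. These include the alternative with no filter on low counts, which could not differ, since the main filter removed 0 genes. With no fold limit, the members passing rose to 7 for Combo vs Vehicle in BM, to 6 for each treatment vs WT in BM, and to 5, 6 and 7 for Combo vs the GLP-1R agonist, Combo vs anti-IL-17A and the single agents against each other. In ATMs they rose to 4 for the GLP-1R agonist vs WT, 3 for anti-IL-17A vs WT, 5 and 4 for Combo vs the GLP-1R agonist and vs anti-IL-17A, and 2 between the single agents. With at least 10 counts in every library, Combo vs anti-IL-17A in ATMs gave 1 member in place of 2, since that filter removes Slfn4. The Slfn2 change of -0.99 for Combo vs Vehicle in BM was -1.01, and called, with DESeq2, with its size factors, with at least 10 counts and with only the groups compared. Slfn3 reversed where it was near 0: for Combo vs WT in ATMs it was 0.00 with at least 10 counts and 0.03 with only the groups compared, and for the GLP-1R agonist vs anti-IL-17A in ATMs it was -0.02 with DESeq2 or its size factors and -0.01 with at least 10 counts.

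Leaving out 1 library at a time moved the members called for anti-IL-17A vs WT in BM, the GLP-1R agonist vs WT in ATMs and the single agents in ATMs between 1 and 2. In BM, small log2 changes ranged from -0.10 to 0.06 for Slfn3 (GLP-1R agonist vs Vehicle), -0.02 to 0.09 for Slfn9 (GLP-1R agonist vs WT) and -0.02 to 0.01 for Slfn1 (anti-IL-17A vs WT). In ATMs against WT they ranged from -0.58 to 0.24 for Slfn3 and -0.35 to 0.31 for Slfn8 with Combo, -0.32 to 0.06 for Slfn1 with the GLP-1R agonist, and -0.79 to 0.16 for Slfn3 and -0.41 to 0.22 for Slfn9 with anti-IL-17A. Slfn3 ranged from -0.46 to 0.36 for Combo vs the GLP-1R agonist and from -0.42 to 0.77 for Combo vs anti-IL-17A. Between the single agents Slfn1 ranged from -0.25 to 0.13, Slfn3 from -0.28 to 0.66 and Slfn8 from -0.15 to 0.07. The cause of these shifts was not tested.

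Same-numbered libraries of 2 groups correlated between -0.0406 and 0.0516, so the replicate numbers do not pair them. BM and ATM libraries of the same group and number correlated between -0.0427 and 0.0277, with 0 of 15 pairs over 0.1. No label says whether they came from the same mouse, and the tissue comparison treats them as independent. The replicate block left 5 members called for Vehicle vs WT in BM and changed no other count of members. DESeq2 size factors moved the median of all genes by -0.11 for the tissue difference of Combo vs Vehicle, and by less than 0.1 elsewhere. Depth limits Slfn4 in ATMs of the GLP-1R agonist, with 0 to 49 counts.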
